A study of Mus musculus with 12 samples.

Results

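Th9 cells are CD4+ T helper cells that form when naive cells meet TGF-β and IL-4 together, and they are known for secreting IL-9. IL-4 on its own drives Th2 cells through STAT6, whereas TGF-β without IL-4 drives regulatory T (Treg) cells through SMAD proteins and Foxp3. Engagement of the T cell receptor, mimicked by antibodies against CD3, starts a fast transcriptional programme in which cytokine genes are switched on. Described here are 80 genes whose mRNA was high in Th9 cells kept at rest and lower in both Th2 and Treg cells cultured in parallel, out of 27745 genes named on the array.

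Gene expression was measured on 12 Agilent arrays, each hybridised with RNA of 1 group, with 3 arrays for each of 4 groups. All cultures began with naive CD4+CD62L+ T cells of C57BL/6 mice, taken from spleen and lymph nodes with magnetic beads, were activated with antibodies against CD3 and CD28 and were harvested on day 5 after an expansion on day 3. The Th2 group received IL-4 (20 ng/ml) and anti-IFN-γ, the Th9 groups received these and TGF-β (2 ng/ml), and the Treg group received TGF-β (2 ng/ml) and an antibody against IL-4, with IL-2 at expansion. The stimulated Th9 group was treated on day 5 with anti-CD3 at 1 µg/ml for 6 h, while the other groups were left unstimulated. Cells were polarised in bulk and not sorted afterwards in the protocol given, and no label states that arrays of the same group are separate cultures or mice, so the spread between arrays (and every p-value) may be technical.

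Genes were chosen from the authors' deposited log2 table with values under 4 raised to 4 and 1 probe per gene name. A gene entered when its mean over the 3 resting Th9 arrays was at least 6 and lay at least 2 above both the Th2 mean and the Treg mean. This gave 85 genes, from which Il9, Il17rb, Erg, Gad2 and Ahr were set aside, leaving 80. The margin over the higher of the Th2 and Treg means ran from 2.00 to 4.53 with a median of 2.41. Just inside the threshold lay Maged1 with a margin of 2.004, Gpr15 with 2.008 and Cog6 with 2.010. Just outside lay Dzank1 with 1.995, Tgfbr3 with 1.993 and Sema4g with 1.980. Because the Th9, Th2 and Treg levels chose the genes, differences among these 3 groups are descriptions without a test. All other levels below are log2 of the scanner's processed signal with every array set to the same 75th percentile (9.28 on the log2 scale), and a difference of 1 on this scale is 2-fold.

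Il9, Foxp3 and Il4 followed the labels of the cultures, but not every Treg marker did. Il9 averaged 7.53 ± 0.66 (SD, n = 3) in resting Th9 cells and 14.7 ± 0.63 after anti-CD3, and it was not well above background in Th2 or Treg cells. Foxp3, the defining factor of Treg cells, averaged 9.81 in Treg and 7.24 in resting Th9 cells, and 3.07 in Th2 cells, where no array was well above background. Gata3 averaged 14.24 in resting Th9 cells and 13.99 in Th2 cells. Il4 was bright in Th2 cells (mean 14.25) and in resting Th9 cells (13.18) and low in Treg cells (3.24). Cd4 and Cd3e were well above background on every array.

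Stimulated array 3 stood apart from stimulated arrays 1 and 2 in markers of other cells and in genes of the stimulation response. Summed over 6 markers of CD8 T and NK cells, its linear signal was 2628, against 19370 and 18300 on stimulated arrays 1 and 2 and 15790 to 20090 on the resting Th9 arrays. Its sum over 9 B cell markers was 448.9, compared with 1250 and 1517 on the other stimulated arrays and 3173 to 4217 on the resting arrays, and its sum over 10 myeloid and dendritic markers was 2298, against 526.4 and 530.2, and 1270 to 1902 at rest. Of the markers tested on stimulation, 2 of 5 for CD8 T and NK cells, 6 of 9 for B cells and 2 of 9 for myeloid cells fell, and 2 myeloid markers rose. Among the myeloid markers, Fcgr3 had by far the widest spread over the stimulated arrays (6.76 ± 3.34, SD), followed by Adgre1 (SD 0.65). The myeloid sum therefore does not show a shift of all its markers on stimulated array 3. Ncr1, Itgam and S100a8 were at background in resting and stimulated Th9 cells. The part of other cells in the falls described below was not tested. Summed early T cell receptor response genes read 382300 on stimulated array 3, against 847400 and 743000 on stimulated arrays 1 and 2. Summed Th2 markers read 132800, against 274400 and 209800, whereas Il9 was highest on it, at 40280 against 16930 and 27920. Over the 80 genes, stimulated array 3 exceeded the mean of stimulated arrays 1 and 2 by a median of 0.39, against 0.004 over all genes tested. Stimulated array 3 was also the only stimulated array on the slide that carried the 3 resting Th9 arrays. Stimulated arrays 1 and 2 shared a slide with Treg arrays 2 and 3. Th2 arrays and Treg array 1 filled the remaining slide, so for resting Th9 against Th2 or Treg cells slide and group cannot be told apart. Each of the 80 genes kept its call on stimulation when stimulated array 3 was left out.

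All 80 genes were well above background on the 3 resting Th9 arrays, with means from 6.02 to 14.3 and a median of 8.41. Resting levels were tight, with a median SD of 0.29 across the 80 genes. Sgk1, a serum- and glucocorticoid-regulated kinase, was the brightest at 14.02, 14.41 and 14.41, and Nat8l, which makes N-acetylaspartate, was the dimmest at 6.24, 6.53 and 5.30. Probes differ in binding, so these levels do not rank the genes by mRNA amount. In a culture, more cells with a transcript and more transcript per cell cannot be told apart.

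**Figure D1:**
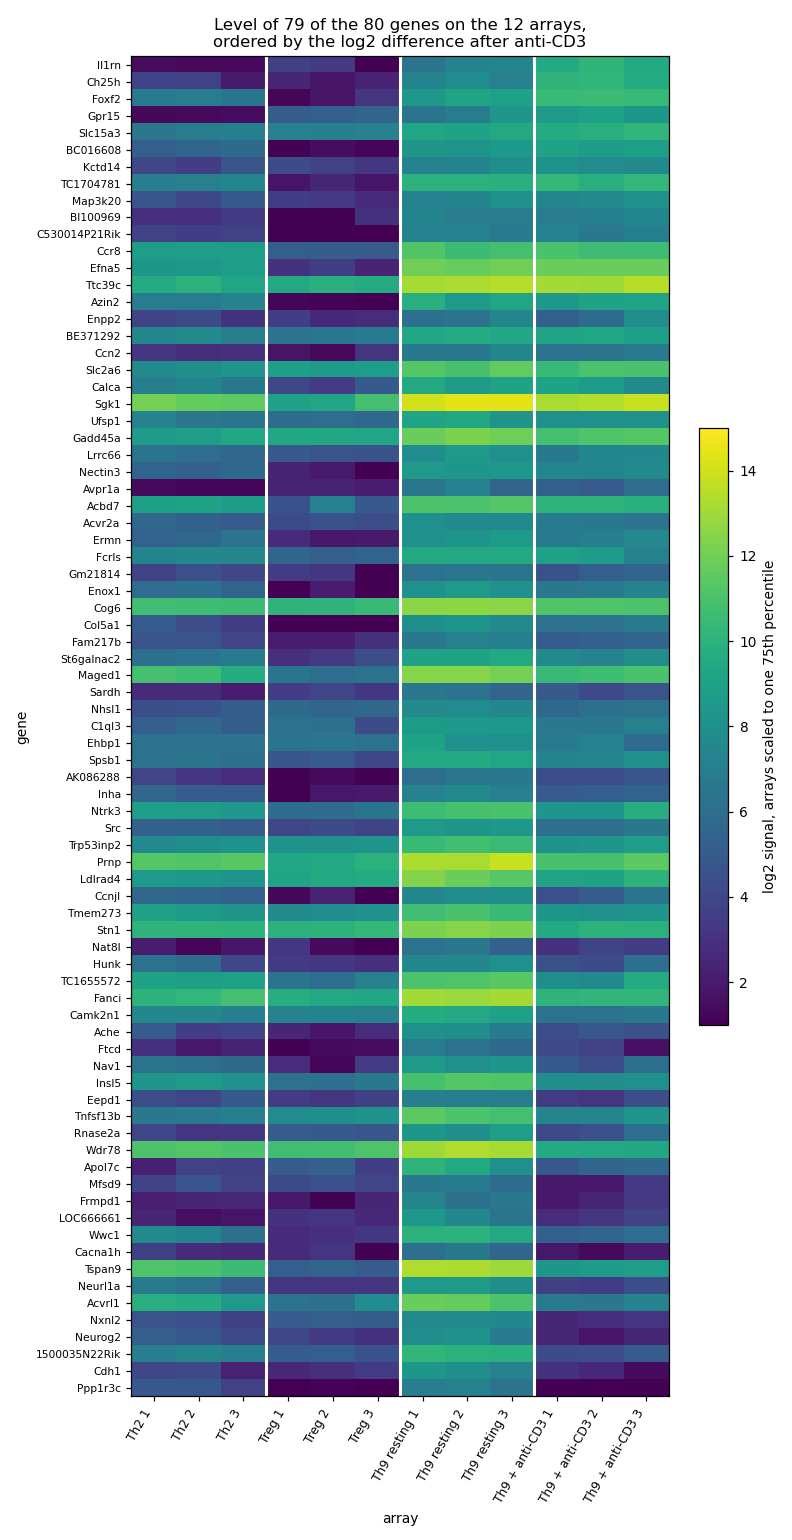
Log2 signal of 79 of the 80 genes (rows) on each of the 12 arrays (columns, 4 groups of 3), ordered from the largest rise to the largest fall after anti-CD3. The resting Th9 block is the brightest of the unstimulated blocks in every row, and the stimulated block is dimmer than the resting block in the lower rows.

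The widest margin belonged to Apol7c, a member of the apolipoprotein L family. It read 10.13, 9.43 and 8.04 on the resting Th9 arrays, 2.25, 3.71 and 3.65 on the Th2 arrays and 5.05, 5.30 and 3.58 on the Treg arrays. The resting arrays were spread widely, but none came near the other groups. A second probe of Apol7c had a margin of 3.65 with the same floor of 4. LOC666661, whose probe lies 102 kb away on chromosome 15, also ranked among the 10 widest, at 8.48, 7.55 and 6.38 in resting Th9 cells and at background throughout the Th2 and Treg arrays.

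Cdh1, which encodes the adhesion molecule E-cadherin, read 8.43, 7.97 and 7.09 on the resting Th9 arrays. On the Th2 arrays it read 3.98, 4.11 and 2.29, and on the Treg arrays 2.64, 2.92 and 3.43, where 2 of the 3 Th2 arrays and 1 of the 3 Treg arrays were well above background. No array of either group reached the lowest resting Th9 value. Ttc39c, a tetratricopeptide repeat gene, had a strong signal in all groups. It read 13.18, 13.28 and 13.51 in resting Th9 cells, and averaged 9.62 with Th2 and 9.65 with Treg culture.

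Rnase2a, an eosinophil-type ribonuclease gene, read 8.43, 7.99 and 8.80 in resting Th9 cells and averaged 3.43 in Th2 and 4.89 in Treg cells. Col5a1, a fibrillar collagen chain, read 7.96, 8.23 and 7.72 and averaged 4.26 in Th2 cells, while no Treg array was well above background. A further Col5a1 probe gave a margin of only -0.07, so the 2 probes disagreed. Ache, the acetylcholinesterase gene, read 8.03, 7.95 and 6.84 and averaged 4.13 in Th2 cells. Of 6 fibroblast markers, Col3a1 and Dcn were at background in every group and Lum in resting Th9 cells, while Col1a1 (mean 5.34), Col1a2 (6.82) and Pdgfrb (4.70) were well above background in resting Th9 cells. Of 5 endothelial markers, Cdh5, Kdr, Tek and Emcn were at background in every group and Pecam1, which T cells also express, averaged 9.43. After anti-CD3 Pecam1 (-2.90), Pdgfrb (-3.20) and Col1a1 (-1.68) fell as well, and the part of such cells in the falls was not tested.

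Although the genes were chosen to be low in both, Th2 and Treg cells did not carry them alike. Of the 80 genes, 63 were well above background on all 3 Th2 arrays and 41 on all 3 Treg arrays, while 9 were at background on every Th2 array and 28 on every Treg array. Over all probes, 59.9% to 60.8% were well above background on single Th2 arrays and 60.8% to 62.5% on single Treg arrays. Th2 cells exceeded Treg cells by at least 1 for 44 genes (15.6% of all 17928 genes tested did so), and Treg cells exceeded Th2 cells by at least 1 for 9 (background 16.8%). For genes at background in a culture, the size of such a difference is not measured. The median Th2 minus Treg difference was 1.29, against -0.11 over all genes tested. The summed B cell markers were also different, at 34690 to 47400 on the Treg arrays against 1567 to 2678 on the Th2 arrays, and their part in this was not tested.

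Azin2, an antizyme inhibitor of polyamine metabolism, was measured in Th2 cells alone of the 2 reference cultures. It read 6.90, 6.86 and 7.22 in Th2 cells and was not well above background on any Treg array, against 9.76, 8.52 and 9.22 in resting Th9 cells. Tspan9, a tetraspanin, averaged 10.92 in Th2 and 5.21 in Treg cells, 5.71 apart and well above background on all 6 arrays. Gpr15, a receptor that guides T cells to the colon, had the opposite order. It was at background on every Th2 array, read 5.14, 5.16 and 5.56 in Treg cells, and reached 6.41, 6.94 and 8.28 in resting Th9 cells. The others on that side were Apol7c, Rnase2a, Tnfsf13b, Il1rn, Ldlrad4, Sardh and Nhsl1, and Avpr1a, whose difference lies below background in both cultures and is not a measured one. For Il1rn no Th2 array and only 1 Treg array was well above background. Ftcd, counted on the Th2 side, was at background in both cultures. The 6 genes LOC666661, Ccn2, Frmpd1, Avpr1a, Ftcd and Nat8l were at background on all Th2 and Treg arrays.

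**Figure D2:**
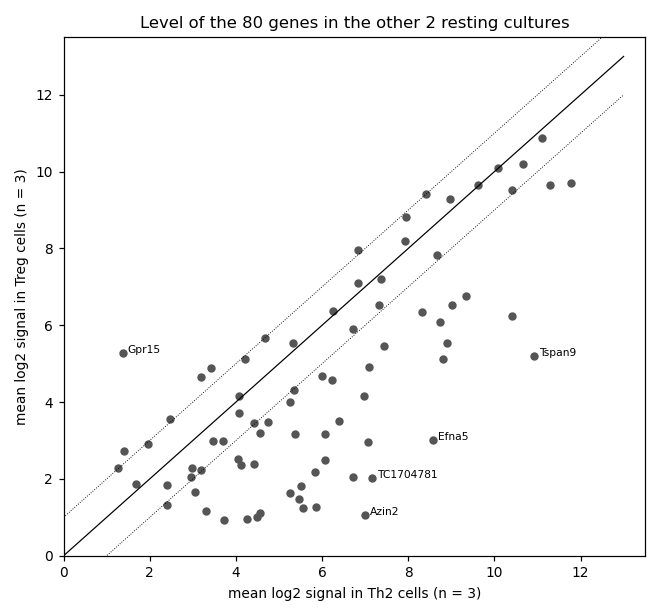
Mean log2 signal of the 80 genes in Th2 cells (horizontal axis) and Treg cells (vertical axis), n = 3 arrays each; the solid line marks equal levels and the dotted lines a difference of 1. More points lie below the band (44) than above it (9), and Gpr15 is the outlying point on the Treg side.

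Most of the set was lower after anti-CD3. With limma and Benjamini-Hochberg adjustment over 17928 genes, 57 of the 80 (71.2%) were lower in stimulated than in resting Th9 cells at an adjusted p under 0.05, where 32.2% of all genes tested were lower. A further 6 (7.5%) were higher, where 32% of all genes were, and 17 were not called. The median log2 difference was -1.78, against -0.02 over all genes, and it was -1.05 with normexp background correction. The 3 resting arrays that chose the genes are also the reference of this comparison, which favours a fall, whereas the stimulated arrays played no part in the choice.

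The falls were large. At least 2-fold falls were called for 52 genes (65%, background 17.5%), among them 36 falls of at least 4-fold (background 5.86%) and 23 of at least 8-fold (background 1.91%). With normexp background correction these counts were 44, 18 and 6. Of the 80 genes, 56 were called lower with no stimulated array overlapping a resting array (background 31.2% of all genes tested). Avpr1a was the only one of the 57 lower genes with an overlap. Over all genes tested, 5590 of the 5771 called lower had no overlap either, so such separation was usual among lower genes. Within the slide shared by the resting arrays and stimulated array 3, the difference was below 0 for 66 genes and above 0 for 14, with a median of -1.46. A fit with slide as a block takes its difference from the same arrays, so it is no separate check of direction. It called 46 genes lower (background 24.9%) and 4 higher (background 25.9%), all of them among the calls above.

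**Figure D3:**
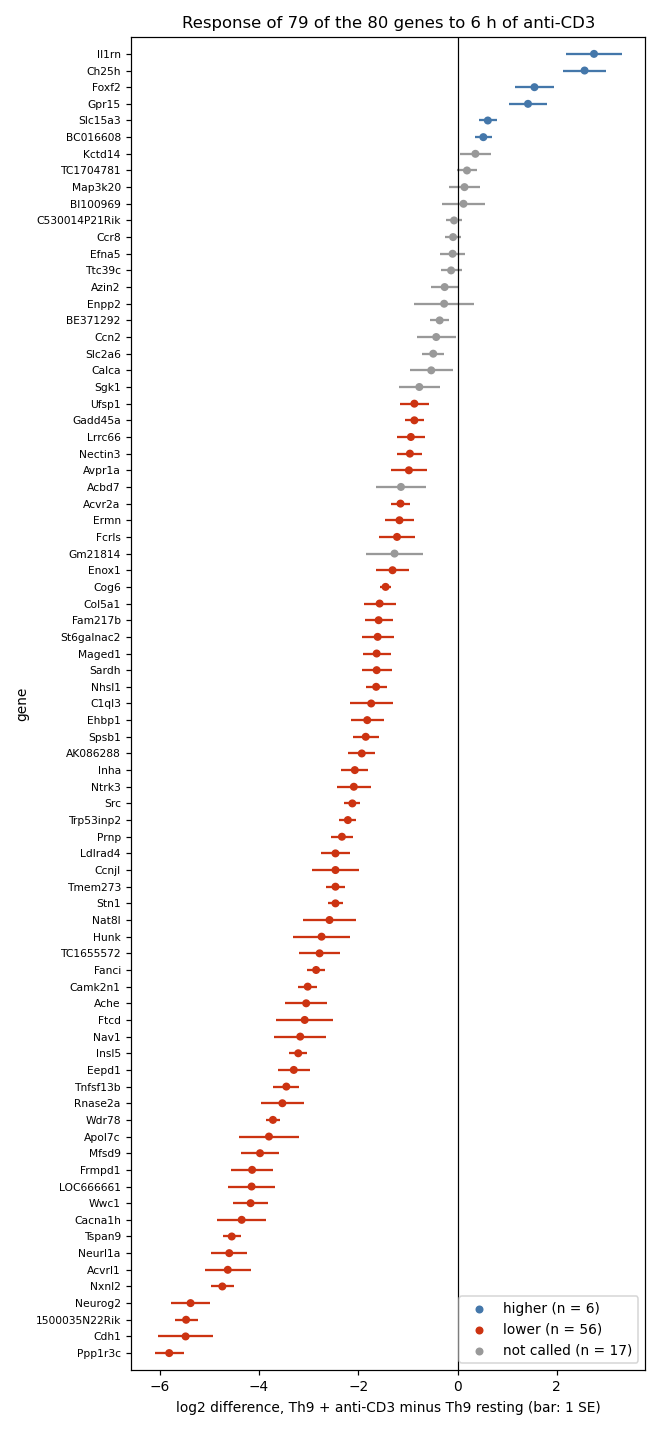
Log2 difference between stimulated and resting Th9 cells for 79 of the 80 genes (points, 3 arrays a group) with 1 standard error from limma (bars); colours give the call at an adjusted p under 0.05. The 56 lower genes drawn reach from -0.87 to -5.81 and the 6 higher genes from 0.52 to 2.75.

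Among the 10 genes with the largest fitted differences, 5 were at background on every stimulated array, so their fitted values have no order and only bounds are given. Ppp1r3c, which targets a phosphatase to glycogen, read 7.01, 7.13 and 6.32 at rest and 1.06, 0.95 and 1.01 after anti-CD3, where no array was well above background. This was a fall of at least 12.2-fold (limma adjusted p = 1.1e-07). Such lower bounds set the resting mean against the dimmest signal well above background on each stimulated array. They shrink with normexp background correction, under which the fall was 2.98-fold for Ppp1r3c, 4.33-fold for Cdh1, 3.59-fold for Neurog2, 3.49-fold for Nxnl2 and 1.87-fold for Cacna1h, each still called. Cdh1 dropped from the resting values given above to 3.07, 2.58 and 1.41, also at background, and was thus at least 24.5-fold lower (adjusted p = 8.14e-06).

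The unnamed gene 1500035N22Rik read 10.20, 9.93 and 9.86 at rest and 4.23, 4.34 and 5.00 after anti-CD3, a 44.4-fold fall between measured levels (adjusted p = 6.25e-08; 12.0-fold with normexp). Neurog2, a proneural basic helix-loop-helix transcription factor, read 7.88, 8.15 and 6.84 at rest and 2.49, 1.79 and 2.46 after stimulation. It was at background there and at least 21.3-fold lower (adjusted p = 8.65e-07). Nxnl2, a nucleoredoxin-like gene, went from 7.57, 7.65 and 7.52 to 2.52, 2.83 and 3.17, at least 20.6-fold. Cacna1h, a T-type calcium channel subunit, went from 6.15, 6.67 and 5.59 to 1.89, 1.37 and 2.11, at least 7.59-fold. On the chosen probes, none of these genes had overlapping groups. Another Cacna1h probe was well above background on all resting Th9 and Th2 arrays. With levels under 4 raised to 4 its margin was 0.02, and it changed by -0.48. A further Cacna1h probe had a margin of 0.31 and changed by -2.02. A second Nxnl2 probe was at background in all groups. A second Ppp1r3c probe averaged only 3.50 at rest, with a margin of 0.03, and changed by -2.43.

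Tspan9 kept a clear signal while falling: 13.32, 13.25 and 12.96 at rest became 8.42, 8.66 and 8.81, a log2 difference of -4.55 ± 0.18 (SE, n = 3 a group; adjusted p = 4.33e-08). Neurl1a, a neuralized-type ubiquitin ligase, went from 8.51, 8.76 and 7.93 to 3.64, 3.42 and 4.35. Wwc1 (KIBRA), a scaffold of the Hippo pathway, went from 9.98, 10.07 and 9.45 to 5.34, 5.57 and 6.07. The log2 differences were -4.60 ± 0.36 and -4.17 ± 0.36 (SE), with limma adjusted p of 1.29e-06 and 2.46e-06. Acvrl1, also among these 10, is described with the TGF-β family genes. Outside the 10, Apol7c (13.9-fold) and Wdr78 (13.2-fold) fell between levels measured on all arrays by more than some of the bounds above.

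Some of these genes ended below the cells they had been chosen against. The stimulated mean lay below the higher of the Th2 and Treg means for 27 genes (background 65.2%) and below both for 9 (background 36.9%). In 6 of the 9, 1500035N22Rik, Nxnl2, Stn1, Mfsd9, Wdr78 and Camk2n1, both reference cultures were well above background on all arrays; in Cdh1, Neurog2 and Cacna1h at least 1 of them was partly or wholly at background. At the other end, 19 genes stayed at least 2 above both means after stimulation (background 2.98%), and for 40 every stimulated array exceeded all 6 Th2 and Treg arrays (background 23.8%). The Th2 and Treg arrays used here are those of the choice, which favours a positive difference. On the slide that held stimulated arrays 1 and 2 with Treg arrays 2 and 3, the stimulated mean was higher by at least 2 for 47 of the 80 (background 9.62%).

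Genes of secreted factors moved both ways. Il1rn, the natural antagonist of the IL-1 receptor, rose most. It read 6.41, 7.24 and 7.35 at rest and 9.55, 10.15 and 9.54 after anti-CD3, a 6.71-fold rise (log2 difference 2.75 ± 0.56 SE; adjusted p = 0.00123). Every stimulated array exceeded every resting one, and no Th2 array was well above background. A second Il1rn probe was at background on all resting arrays and averaged 5.18 after anti-CD3. Tnfsf13b, the B cell survival factor BAFF, did the reverse: 11.48, 11.06 and 10.82 at rest became 7.37, 7.35 and 8.28, an 11.0-fold fall (adjusted p = 9.48e-07). A second Tnfsf13b probe had a margin of only 0.64 and changed by -2.05.

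Insl5, an insulin-like peptide hormone, fell from 10.90, 11.32 and 11.19 to 7.84, 7.92 and 8.02 (adjusted p = 1.7e-07). Its probe lies 20.2 kb from that of Wdr78 on the same strand, and Wdr78 went from a mean of 13.17 to 9.44. Inha, the α-subunit of inhibins, fell from 7.22, 7.60 and 7.08 to 5.02, 5.21 and 5.48. For Insl5 and Inha no stimulated array reached a resting one. A second Inha probe had a margin of only 0.07 with levels under 4 raised to 4, and it changed by -0.77. Calca, the precursor of calcitonin and the neuropeptide CGRP, was not called, at 9.45, 8.61 and 9.09 against 9.13, 8.71 and 7.72. Enpp2 (autotaxin), a secreted enzyme that makes lysophosphatidic acid, was not called either, with 6.12, 6.33 and 7.43 at rest and 5.29, 5.95 and 7.85 after stimulation, and its stimulated array 3 was the highest of the 6.

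Among the TGF-β family genes, both receptors fell. Acvrl1 (ALK1), a type I receptor, went from 11.79, 11.68 and 11.09 to 6.82, 6.59 and 7.25, a 24.8-fold fall (adjusted p = 6.33e-06). Acvr2a, a type II receptor for activins, went from 8.02, 7.63 and 7.62 to 6.82, 6.68 and 6.31, with a log2 difference of -1.15 ± 0.19 (SE). Ldlrad4, which restrains SMAD signalling, went from 12.41, 11.82 and 11.39 to 9.15, 9.06 and 10.03. In contrast Ccn2 (connective tissue growth factor), a classic TGF-β target, was not called: it read 6.67, 6.67 and 7.44 at rest and 6.33, 6.40 and 6.75 after stimulation, with adjusted p = 0.35.

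Of a list of 26 TGF-β response genes tested, which holds Ccn2, Ldlrad4 and Gpr15, 8 fell and 7 rose after anti-CD3, with a median of -0.13, next to 32.2% lower and 32% higher over all genes tested. Its widest changes were in Nt5e (-3.01), the ecto-enzyme CD73, Ldlrad4 (-2.46), Cdkn1a (2.10) and Id3 (1.93). Of 17 IL-4 and STAT6 response genes, which include Ccr8, 6 rose and 6 fell with a median of -0.09. Epas1 (-2.37) and Nfil3 (-2.17) fell while Il24 (1.76) rose. Of 19 Th9 regulators tested, none among the 80 genes, 6 rose and 6 fell. In these 3 lists the counts were near the background. Of 37 early T cell receptor response genes tested, also none among the 80, 27 rose and 3 fell with a median of 2.30, led by Ccl3, Il3, Ccl4 and Xcl1.

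Receptors for chemokines, neurotrophin-3 and vasopressin gave different patterns. Gpr15 rose from the resting values above to 8.50, 9.03 and 8.37 (log2 difference 1.42 ± 0.38 SE; adjusted p = 0.00715), and with slide as a block its adjusted p was 0.129. Ccr8, a chemokine receptor of Th2 cells, read 11.19, 10.52 and 10.86 at rest and 10.96, 10.67 and 10.66 after stimulation, and was not called. The ranges overlapped.

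Ntrk3 (TrkC), the receptor for neurotrophin-3, fell from 10.67, 10.91 and 10.98 to 8.31, 8.26 and 9.70 (adjusted p = 0.000256). A transcript cluster whose probe lies 149.9 kb away on the same strand, TC1655572, is described in the array annotation as a non-catalytic form of this receptor and fell as well, from 11.05, 11.16 and 11.42 to 7.98, 7.70 and 9.60. In both, stimulated array 3 was the highest of the stimulated arrays. Avpr1a, a vasopressin receptor, was at background on all Th2 and Treg arrays and read 6.47, 7.22 and 5.58 at rest. Its stimulated values of 5.35, 5.00 and 5.98 overlapped these, and its call (adjusted p = 0.0319) was lost in 8 of the alternative analyses.

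Ch25h, the enzyme that makes 25-hydroxycholesterol, rose from 7.34, 7.79 and 7.10 to 10.09, 10.21 and 9.61, 5.88-fold (adjusted p = 0.000373). Foxf2, a forkhead transcription factor, rose from 8.48, 9.19 and 9.01 to 10.43, 10.54 and 10.37, 2.93-fold (adjusted p = 0.00561). In both genes the stimulated arrays lay above all resting arrays. Slc15a3, a lysosomal peptide transporter, rose 1.52-fold from 9.29, 9.08 and 9.43 to 9.62, 9.78 and 10.23. The remaining higher entry, BC016608, belongs to the Efna5 region.

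**Figure D4:**
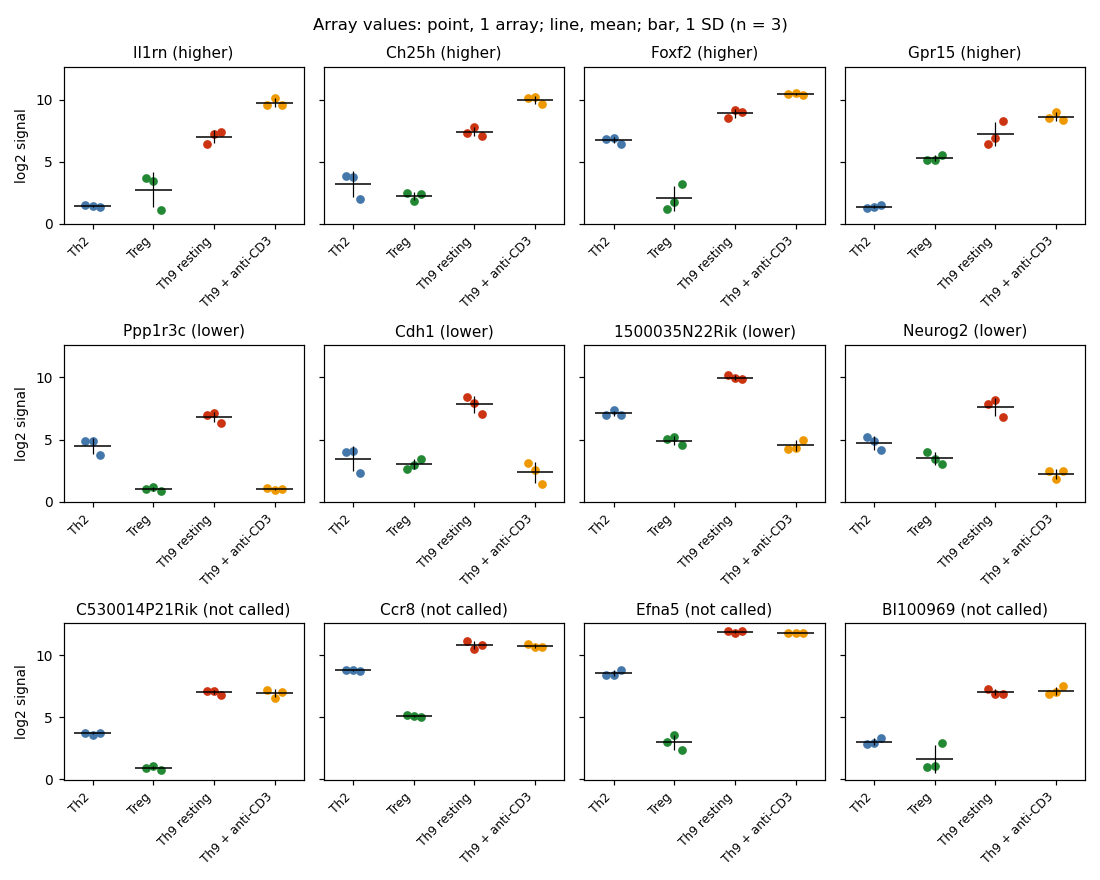
Log2 signal of 12 of the 80 genes on each array, by group (points: arrays; line: mean; bar: 1 SD, n = 3): the 4 largest rises (upper row), the 4 largest falls (middle row) and the 4 uncalled genes with the smallest difference (lower row). In the upper row the stimulated arrays lie above the resting ones, in the middle row their means lie at or below the Th2 and Treg means, and in the lower row the 2 Th9 groups overlap.

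Other members are given by role as examples. The tyrosine kinase gene Src went from 8.55, 8.23 and 8.46 to 6.11, 6.17 and 6.58 (adjusted p = 1.04e-06). Camk2n1, an inhibitor of the kinase CaMKII, fell from a mean of 9.38 to 6.36, and the prion protein gene Prnp from 13.43 to 11.1. Gadd45a, a stress-response gene, fell by 0.87 on the log2 scale with separate arrays, and its adjusted p with slide as a block was 0.0768. The kinases Sgk1 and Map3k20 were not called, with differences of -0.77 and 0.14.

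Fanci, a DNA crosslink repair gene, fell from 13.05, 12.90 and 13.11 to 10.09, 10.21 and 10.22 (adjusted p = 3.53e-07). Stn1, a telomere maintenance gene, fell from a mean of 12.32 to 9.85. Among amino acid and folate enzymes, Ftcd fell by 3.08 and Sardh by 1.63 on the log2 scale, whereas the hexose transporter gene Slc2a6 was not called (difference -0.49, adjusted p = 0.0739). Mfsd9 gave an unsteady reading: its chosen probe fell at least 8.85-fold, but another of its probes read 4.25 in resting Th9 and 5.46 in Treg cells and changed by only -0.35. Over the set, 43 further probes covered 32 genes, and 16 of these probes were not well above background on all 3 resting arrays. The other 27 probes, of 24 genes, were well above it on all 3, a filter that favours a margin. With levels under 4 raised to 4, 16 of these 27 gave a margin of at least 1 and 9 a margin of at least 2.

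The genes without a call included a cluster on chromosome 17. Efna5 encodes ephrin-A5, a membrane-anchored ligand of Eph receptors. Its probe (mm8 chr17:62290290-62290349, minus strand) read 11.95, 11.77 and 11.98 at rest, 11.82, 11.80 and 11.79 after anti-CD3, 8.41, 8.45 and 8.85 in Th2 cells and 3.03, 3.61 and 2.39 in Treg cells. Stimulated and resting Th9 cells differed by -0.10 ± 0.25 (SE, adjusted p = 0.757), and only 1 Treg array was well above background. The set holds 3 other entries with probes on the same strand within 255.4 kb. RefSeq gives Efna5 a length of 278.4 kb in GRCm38.p6, which is more than the stretch these probes span, and whether they read transcripts other than Efna5 was not tested. They are array entries without a current symbol, and their 60-base probes identify them, at mm8 chr17:62371162-62371221, chr17:62381144-62381203 and chr17:62545666-62545725 in this order:
BC016608: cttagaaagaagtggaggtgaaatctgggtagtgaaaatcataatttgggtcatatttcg
TC1704781: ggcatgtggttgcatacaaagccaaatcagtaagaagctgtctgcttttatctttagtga
C530014P21Rik: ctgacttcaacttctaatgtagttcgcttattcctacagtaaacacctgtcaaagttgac

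All 4 entries shared the order Th9, Th2, Treg. BC016608 averaged 8.36 at rest, 5.55 in Th2 cells and 1.25 in Treg cells, TC1704781 averaged 9.94, 7.15 and 2.02, and C530014P21Rik averaged 7.04, 3.72 and 0.94. The 3 Treg means are at background. BC016608 was called higher after anti-CD3, at 8.39, 8.22 and 8.46 against 9.06, 8.67 and 8.89 (adjusted p = 0.0188), and lost the call in 3 alternative analyses. TC1704781 (difference 0.19) and C530014P21Rik (-0.07) were not called. A second Efna5 probe, 46 kb from the first, averaged 6.07 at rest and 6.08 after stimulation.

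**Figure D5:**
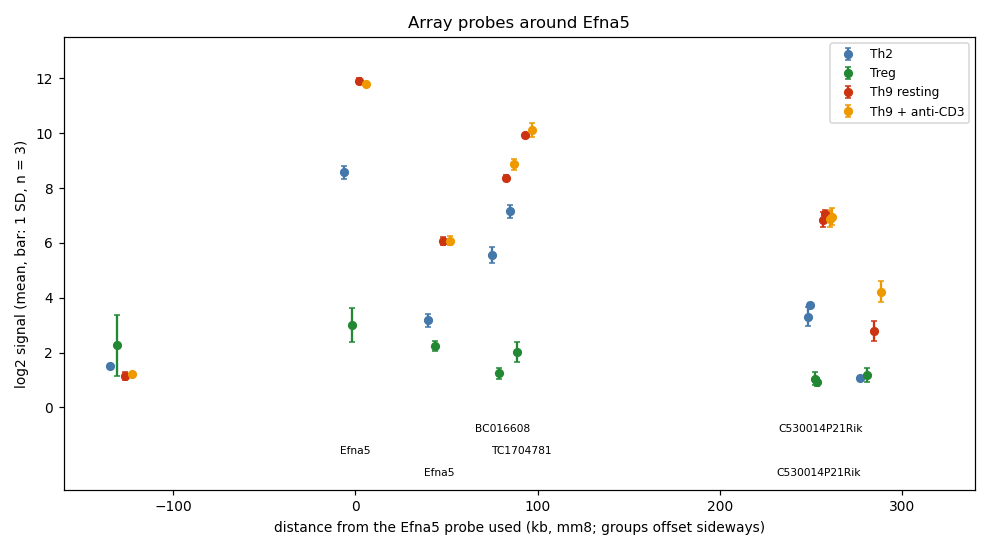
Mean log2 signal (bar: 1 SD, n = 3 arrays) of the array probes around Efna5 against their distance in kb from the Efna5 probe used, with the 4 groups offset sideways. From 0 to 255.4 kb the 2 Th9 groups lie together above Th2 cells, and Treg cells are lowest; the probe at -128.5 kb is dim in all groups.

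Some entries outside the Efna5 region also lay close together. Within 300 kb in mm8, 12 pairs joined 16 of the 78 entries with a position, counting the Efna5 region entries paired with each other. The share of such pairs over all genes was not computed. Pairs elsewhere included Ache and Ufsp1 (1.2 kb), Slc2a6 and Sardh (167.8 kb) and Neurl1a and Stn1 (242.1 kb). Neighbours did not always respond alike: Ache fell by 3.05 and Ufsp1 by 0.87 on the log2 scale, and the Ufsp1 call was lost in 4 alternative analyses, slide as a block among them (adjusted p = 0.165).

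Promoters of the set were read for the letters bound by factors of Th9 culture. RefSeq promoter windows in GRCm38.p6 were matched for 56 of the 80 genes, and the 250 bases upstream of each of their 70 starts were searched on both strands, each motif being counted on its own even where matches overlap. The STAT6 letters (TTC, any 4 bases, GAA) occurred in 7.14% of these windows and 5.85% of all 32851 windows, and the SMAD letters CAGAC in 51.4% and 42.2%. The AP-1 letters TGANTCA occurred in 5.71% and 6.75%, the PU.1 letters GAGGAAGT in 1.43% and 2.44%, and GCGTG, the core read by the aryl hydrocarbon receptor, in 42.9% and 28.2%. STAT6 and SMAD letters occurred together in 5 windows (7.14%; 2.35% of all windows), which overlap in part and belong to Apol7c, Tnfsf13b and Il1rn.

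Il1rn and Tnfsf13b are shown because both printed windows hold both motifs although the genes moved in opposite directions after anti-CD3. Another Il1rn window, at chr2:24336610-24336859, held neither motif. Capitals mark the STAT6 and SMAD letters on either strand, in GRCm38.p6 chr2:24345041-24345290 and chr8:10006217-10006466, plus strand, and these sequences were picked after the values were known:
Il1rn: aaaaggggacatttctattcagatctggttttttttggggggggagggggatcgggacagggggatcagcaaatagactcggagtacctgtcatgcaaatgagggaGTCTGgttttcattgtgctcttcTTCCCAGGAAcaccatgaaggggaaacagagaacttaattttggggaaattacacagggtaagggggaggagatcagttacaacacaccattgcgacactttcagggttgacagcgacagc
Tnfsf13b: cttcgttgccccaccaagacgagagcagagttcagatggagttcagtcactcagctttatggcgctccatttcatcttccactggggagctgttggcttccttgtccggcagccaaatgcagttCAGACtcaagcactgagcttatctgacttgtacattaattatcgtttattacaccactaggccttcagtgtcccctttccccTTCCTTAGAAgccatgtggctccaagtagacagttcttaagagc
A match of letters is a description of the sequence and shows no binding.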

How the data were processed

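Per the file headers, spot intensity was extracted with Agilent Feature Extraction 10.5.1.1, with background subtraction within each array. The authors also deposited a log2 table of the whole series, used to choose the genes; it lacks 83 values, and its normalization is not stated in any source used here. The genes and lists were chosen with earlier results of these data known, and grouping by role followed the gene names. Control and outlier spots were left out, spots of a probe were averaged, log2 was taken and arrays were aligned at the 75th percentile. Genes needed a probe well above background on 3 of 12 arrays, which left 17928. All arrays were fitted with limma 3.58.1 in R 4.3.3 (1 mean per group, Benjamini-Hochberg adjustment). The fit was tried on simulated data in which 100 genes changed by 2 and 100 by 1 on the log2 scale. It called 89 and 67 of these, and 8 unchanged genes. Many more genes were called in the real comparison, so these rates do not carry over to it. Of the 80 genes, 72 were named through a GRCm38.p6 table and 8 keep array names; probe positions are from the mm8 annotation of the array. Arrays number 3 a group, which limits precision, and no spot was saturated. Array values were given for the 10 widest margins, the called rises, the 10 largest falls and genes of secreted factors, receptors and transcription factors, and up to 4 called genes of each list were named; other genes were named by role after their values were seen. Alternatives covered background correction, normalization, filters, slide, replicate number and left-out arrays. Of the 80 genes, 1 is included in the counts but is not reported here by name.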

Additional observations from a re-analysis of the deposited data

How the results depend on the processing

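No call among the 80 genes reversed its direction under the alternatives tried. Requiring a margin of 1.5 gave 152 genes and one of 2.5 gave 36; leaving out single arrays gave 73 to 93. The median difference after anti-CD3 was -1.05 with normexp background correction, -1.46 with slide as a fixed block, and -1.87 to -1.71 without single arrays. Lower genes numbered 55 to 57 and higher genes 5 to 6 without single arrays; over all genes 5287 to 5702 were lower and 5278 to 5587 higher. Of the called genes, 45 of 57 lower and 4 of 6 higher were called under every alternative. With slide as a fixed block 13 calls were lost, the largest number of any alternative. The difference in that fit is stimulated array 3 against the resting arrays, which share its slide. Stimulated arrays 1 and 2 do not enter this difference. Why the calls were lost was not tested further. Deviations from the group mean of each gene were correlated between resting and stimulated Th9 arrays. Same-numbered arrays gave 0.209, 0.108 and 0.0957, and each array correlated best with its own number, a hint from the data only. With a replicate block 58 genes were lower and 6 higher. Signal over background limits the dimmest readings: 6 genes were not well above it on any stimulated array.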
